A study of Mus musculus with 6 samples.

Results

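The genes described here encode amino acid transporters of the Slc1, Slc3, Slc7, Slc36, Slc38 and Slc43 families in mouse endothelial cells that did or did not overexpress SOD3, the extracellular superoxide dismutase. A gene was taken when its symbol in the array annotation began with Slc1a, Slc3a, Slc7a, Slc36a, Slc38a or Slc43a, with the exception of Slc7a11. This rule found 43 of the 22607 gene symbols on the array, with 58 probes. 2 of the 43, Slc7a6os and Slc36a1os, are transcripts on the strand opposite a transporter gene and were taken only because of their names. The cells were 1G11, a mouse microvascular endothelial line whose labels give the strain C57BL/6NCrLBR, in a mock-modified form (1G11-mock) and a form modified to overexpress SOD3 (1G11-SOD3). Before lysis both lines had spent 6 h in the conditioned medium of N202.1A, a mouse mammary cancer line, and no cells without this medium enter the comparison. Total RNA of 3 biological replicates per line was measured, each replicate on its own single-color Agilent array (SurePrint Mouse G3). The comparison answers which transporter mRNAs differ between the lines. As each line is 1 modified population, SOD3 and any other difference between the 2 populations cannot be told apart.

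Amino acids cross membranes through carriers that differ in what they carry and in what drives them. Members of the Slc7 family known as light chains work only when bound to a heavy chain, Slc3a2 (CD98hc) or Slc3a1, and exchange amino acids across the membrane, whereas the cationic members of Slc7 carry arginine and lysine on their own. Slc1 carriers take up glutamate or exchange small neutral amino acids, Slc38 carriers bring in glutamine and other neutral amino acids with sodium, Slc36 carriers move small amino acids with protons, and Slc43 carriers let amino acids or nucleobases pass down their gradient. Endothelial cells use such carriers to take up arginine, the substrate of nitric oxide synthase, and glutamine, which they consume as a fuel and a nitrogen source. Some of these proteins stand on lysosomes, where they report amino acid supply to the kinase mTORC1.

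The values below come from single 60-base probes, and genes with several probes can differ between them. The first 30 bases of the probes on which the results turn are shown for that reason, namely the one that passed the threshold, those nearest to it, and the 2 and 3 probes that read different parts of Slc1a5 and Slc38a1. Capitals are not used, as no part of a probe was singled out. Positions follow the array's annotation, which names no genome build. Only 6 of the 58 member probes lay within their gene as placed in the GRCm38 build, so the positions are not to be read as GRCm38. Exon or UTR annotation was therefore not assigned.

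Slc43a2 (chr11:75387219-75387278, plus strand): ggttttctcttgttttatcatgattctttt

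Slc43a3 (chr2:84797987-84798046, plus strand): tttgatgatccagtatctacaaagactgcc

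Slc1a5 probe 1 (chr7:17383359-17383418, plus strand): cctaccctctcaggaaatgggttgtcctgt

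Slc1a5 probe 2 (chr7:17383027-17383086, plus strand): aacagtaccagggacccaccggggactcca

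Slc3a2 (chr19:8782189-8782248, minus strand): gagggcttgctgttacagttcccctttgtg

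Slc38a1 probe 1 (chr15:96406793-96406852, minus strand): tggaaacacgatcaacagttgtcttcactt

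Slc38a1 probe 2 (chr15:96402753-96402812, minus strand): gaatctatgcagcagaggctcactttagga

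Slc38a1 probe 3 (chr15:96405187-96405246, minus strand): tgaccacctttgtagctctgtttgtactgt

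The Slc43a2 probe has the lowest GC content of all member probes, 31.7%, against a median of 41.7% over the 58 member probes and 43.3% over all 55681 probes of the array. The Slc3a2 probe lies above both medians, at 53.3%.

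All values are log2 intensities after background correction and quantile normalization, and 1 unit corresponds to a 2-fold difference. A difference was called when it was over 2-fold with an adjusted p under 0.05 in limma. On each array 59305 spots were not controls, the share of them well above background ran from 34.2% to 43.8%, and no spot was saturated. The arrays shared 1 slide on which all 1G11-mock samples occupied row 2 and all 1G11-SOD3 samples row 1, and an effect of the slide row cannot be told apart from one of the cell line. A central rectangle of spots (rows 129 to 256 and columns 55 to 109) read dim on the 1G11-mock arrays. Spots there were therefore kept apart, and a probe printed in both places gives 2 features. The members had 51 features outside the rectangle (37 genes) and 9 inside it (9 genes, 6 of which had no spot elsewhere). Sod3, itself inside the rectangle, read 13.61, 12.66 and 9.86 on the 1G11-mock arrays and 16.37, 16.30 and 16.26 on the 1G11-SOD3 arrays (log2 difference of 4.27 ± 0.70 SE, adjusted p = 0.0074). The difference was 2.76 after an adjustment for place on the array. Of the 12 endothelial markers, taken by the brightest feature of each gene, 4 (Kdr, Eng, Esam and Vwf) were well above background on all arrays, 5 (Cdh5, Erg, Tek, Tie1 and Emcn) on none, and Flt1, Pecam1 and Cldn5 on some. Another Kdr probe was well above background on no array.

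Among the transporters measured outside the rectangle, the difference between the lines passed the threshold for 1 gene. This was Slc43a2, a carrier of branched-chain and other large neutral amino acids, which was 3.45-fold lower in 1G11-SOD3 cells. No member outside the rectangle was called higher. 1 of 51 features was called (1.96%), against 1.86% of the 49526 features tested outside the rectangle (0.66% higher and 1.2% lower). Among features well above background on all 3 arrays of at least one line, the share was 1 of 19 (5.26%), against 5.04%. The members' share was thus near that of all features. With the replicate number as a block 2 members were called, where 2.51% of all features were, and with an adjustment for place on the array 3 were called, where 1.78% of all features were. In 15 of the 51 features the lines did not overlap (29.4%, against 19.6% of all features), 6 being higher and 9 lower in 1G11-SOD3 cells. For the 19 well-measured features this was 6 (31.6%, against 29.4%). The median log2 difference was -0.07 over the 51 members and -0.06 over all features, and -0.22 and -0.13 among those well above background. At an unadjusted p under 0.05, 12 of the 51 features passed (23.5%), against 12.7% of all features, and 7 of the 19 (36.8%), against 25.05% of all those well above background. The half-width of the 95% confidence interval, not adjusted for the number of features, had a median of 0.59 over the 19 features at 3 arrays per line. A call needed more than an interval without 0, namely over 2-fold and an adjusted p under 0.05.

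**Figure D1:**
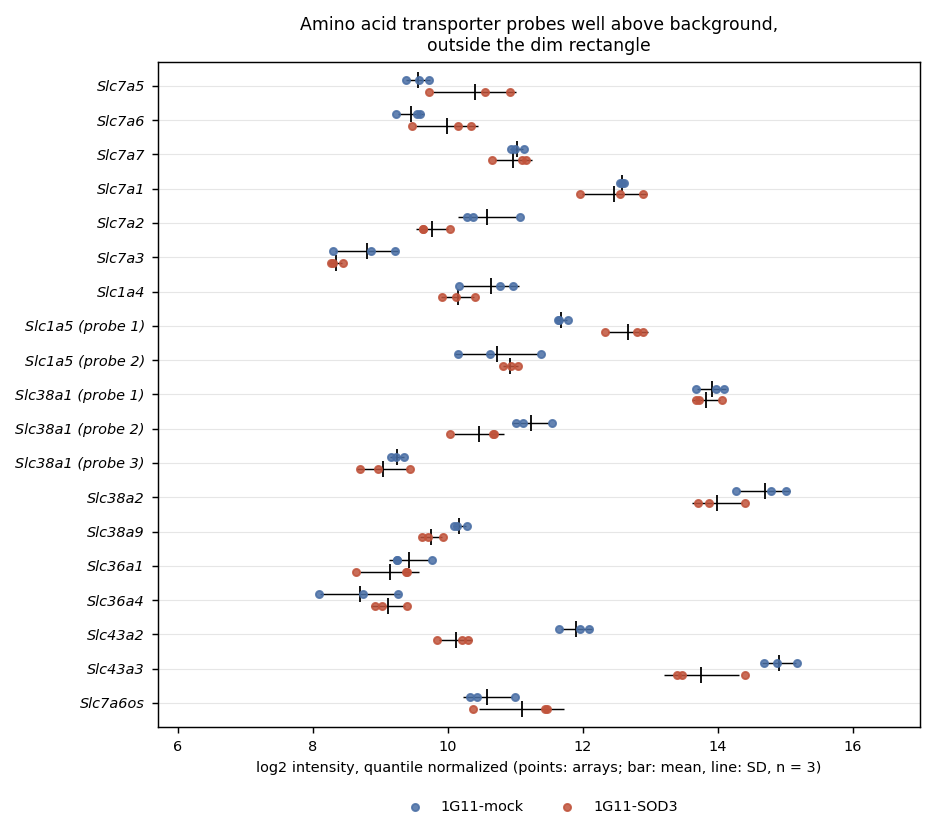
Log2 intensity (x axis, quantile normalized) of the 19 transporter features outside the rectangle that were well above background on all 3 arrays of at least one line, 1 row per feature, with 1 point per array (blue, 1G11-mock; red, 1G11-SOD3), the mean as a bar and the SD as a line (n = 3). The points of the lines stand fully apart for Slc43a2 and Slc43a3, with 1G11-mock higher, and for Slc1a5 probe 1, with 1G11-SOD3 higher, and overlap for most other genes; levels of different probes are not comparable.

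The facilitative Slc43 carriers gave the greatest differences of the 16 well-measured genes, and both lay on the lower side in 1G11-SOD3 cells. Slc43a2 read 11.65, 12.09 and 11.96 on the 1G11-mock arrays (11.90 ± 0.23, SD, n = 3) and 10.21, 10.30 and 9.83 on the 1G11-SOD3 arrays (10.12 ± 0.25, SD, n = 3). Each 1G11-SOD3 array was thus more than 1 log2 unit below each 1G11-mock array. The log2 difference was -1.79 ± 0.24 (SE), with an adjusted p of 0.003 in limma. It stayed between -1.92 and -1.31, past the threshold, under every alternative setting and with each array left out (values relative to the median of all features where a scaling shifted it), and the adjustment for place gave -1.91.

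Slc43a3, placed in the family by its sequence but known as a carrier of purine nucleobases, also read apart between the lines. Its 1G11-mock values were 15.17, 14.68 and 14.87 (14.91 ± 0.25, SD, n = 3) and its 1G11-SOD3 values 13.46, 13.40 and 14.40 (13.75 ± 0.56, SD, n = 3). The third 1G11-SOD3 replicate stood well above the other two, although still below all 1G11-mock arrays. The difference of -1.15 ± 0.30 (SE) missed the threshold (adjusted p = 0.064). It passed with the replicate number as a block (adjusted p = 0.038), without 1G11-SOD3 replicate 3 (-1.49, adjusted p = 0.027) and after the adjustment for place (-1.45, adjusted p = 0.042). It also passed with dim features left out. Slc43a1, the remaining family member, was well above background on 1 array.

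Of the Slc1 carriers, Slc1a4 and Slc1a5, exchangers of small neutral amino acids, were well measured. Slc1a5 (ASCT2) is known as a main route of glutamine entry. Its probe 1 read 11.77, 11.64 and 11.63 in 1G11-mock and 12.89, 12.33 and 12.79 in 1G11-SOD3 cells. All 1G11-SOD3 arrays were above all 1G11-mock arrays. The log2 difference of 0.99 ± 0.23 (SE, 1.99-fold, adjusted p = 0.045) lay just under the 2-fold threshold and was not called. It was called when the rectangle was left out of the normalization (1.15, adjusted p = 0.032) and with scaling to the 75th percentile (adjusted p = 0.027). Under that scaling the value was 1.498 relative to the median of all features. The call and the adjusted p there rest on the fitted value, before that median was taken off. The difference was not called after the adjustment for place (0.73, adjusted p = 0.074).

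The second Slc1a5 probe lies 332 bases away and gave a smaller difference. It read 10.16, 10.62 and 11.39 in 1G11-mock and 10.94, 11.03 and 10.81 in 1G11-SOD3 cells, and the 1G11-SOD3 values lay within the 1G11-mock range. Its log2 difference was 0.21 ± 0.30 (SE, adjusted p = 0.81). The differences of the 2 probes could not be told apart by an exact 2-sided permutation test of their per-array ratio (p = 0.2, or 0.27 adjusted over the 4 probe pairs compared). With 3 arrays per line the smallest p that this test allows is 0.1. Slc1a4 (ASCT1) had a log2 difference of -0.49 ± 0.27 (SE, adjusted p = 0.45), with overlapping lines.

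Among the light chains, Slc7a5 (LAT1), the exchanger of large neutral amino acids that pairs with Slc3a2, read 9.57, 9.72 and 9.37 in 1G11-mock and 10.93, 10.55 and 9.72 in 1G11-SOD3 cells. Only the third 1G11-SOD3 replicate reached down to the 1G11-mock range. The difference of 0.84 ± 0.30 (SE) was not called (adjusted p = 0.21). A second Slc7a5 probe was well above background on no 1G11-mock array and on 2 1G11-SOD3 arrays, and its log2 difference was 0.46. Slc7a6, an exchanger of cationic for neutral amino acids, differed by 0.54 (95% confidence interval -0.06 to 1.13, adjusted p = 0.40). For its close relative Slc7a7 the difference was -0.05 (-0.56 to 0.46, adjusted p = 0.95), an interval that excludes a 2-fold difference. Slc7a6os, the transcript opposite Slc7a6, had a difference of 0.51 (-0.20 to 1.22, adjusted p = 0.53).

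The arginine carriers of the Slc7 family are a route by which endothelial cells obtain the substrate of nitric oxide synthase. Slc7a1 (CAT1) read 12.61, 12.58 and 12.56 in 1G11-mock and 12.56, 12.89 and 11.95 in 1G11-SOD3 cells. The mock values were nearly equal and fell inside the wider 1G11-SOD3 range, with a difference of -0.12 (95% confidence interval -0.70 to 0.47, adjusted p = 0.89). Slc7a2 (CAT2), known to be inducible by inflammatory signals, read 10.38, 11.07 and 10.29 in 1G11-mock and 9.64, 10.03 and 9.62 in 1G11-SOD3 cells. Its lines did not overlap, but the difference of -0.81 ± 0.27 (SE) was not called (adjusted p = 0.16). Slc7a3 (CAT3) was dimmer and gave -0.46 (-1.04 to 0.12, adjusted p = 0.48).

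No sodium-coupled Slc38 carrier outside the rectangle was called in the main fit. Slc38a2 (SNAT2), known to rise when cells lack amino acids, read 14.27, 14.79 and 15.02 in 1G11-mock and 13.87, 13.70 and 14.40 in 1G11-SOD3 cells. The lines overlapped only at the lowest 1G11-mock and the highest 1G11-SOD3 array, and the difference was -0.71 ± 0.28 (SE, adjusted p = 0.26). Slc38a9, a lysosomal arginine sensor upstream of mTORC1, read 10.28, 10.09 and 10.14 against 9.93, 9.70 and 9.62. Its lines did not overlap, with a difference of -0.42 ± 0.22 (SE, adjusted p = 0.42). Its other 2 probes, neither well above background on all arrays of a line, gave 0.23 and -0.62.

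Slc38a1 (SNAT1), a glutamine carrier, was read by 3 probes that gave log2 differences of -0.09, -0.76 and -0.22. Probe 1 read 14.09, 13.97 and 13.67 in 1G11-mock and 14.06, 13.73 and 13.67 in 1G11-SOD3 cells, nearly the same range. Probe 2 read 11.12, 11.01 and 11.54 against 10.68, 10.67 and 10.04, with no overlap (-0.76 ± 0.26, SE, adjusted p = 0.185). It lies 4040 bases from probe 1. The ratio of probe 1 to probe 2 was higher on every 1G11-SOD3 array (3.05 to 3.64 on the log2 scale) than on any 1G11-mock array (2.13 to 2.97), with an exact 2-sided permutation p of 0.1, the smallest possible here, and 0.2 after adjustment over the 4 pairs. The ratio of probe 3 to probe 2 also did not overlap between the lines (exact permutation p = 0.1, adjusted 0.2). For probe 1 against probe 3 the exact permutation p was 0.6. The difference of probe 2 shrank to -0.41 after the adjustment for place. All 5 well-measured Slc38 features had negative differences. The sign turned for probes 1 and 3 of Slc38a1 under the adjustment for place and for probe 1 when the rectangle was left out. Relative to the median of all features, it also turned for probes 1 and 3 under scaling to the 75th percentile and for all 5 with the scanner's processed signal. These settings moved that median to -0.34 and -0.52. A relative value smaller in size than the median was still negative as fitted.

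Of the proton-coupled Slc36 carriers, Slc36a1, which stands on lysosomes, differed by -0.28 (95% confidence interval -0.89 to 0.33, adjusted p = 0.71) and Slc36a4 by 0.42 (-0.25 to 1.08, adjusted p = 0.59). The remaining 21 genes outside the rectangle were not well above background on all 3 arrays of either line. They were Slc1a1, Slc1a2, Slc1a6 and Slc1a7, which carry glutamate, the heavy chain Slc3a1 and its partner Slc7a9, the other light chains Slc7a8, Slc7a10, Slc7a12, Slc7a13 and Slc7a15, the Slc7 members Slc7a4 and Slc7a14, the Slc38 members Slc38a3, Slc38a5, Slc38a8 and Slc38a11, and Slc36a2, Slc36a3, Slc43a1 and Slc36a1os. Together with further probes of Slc7a5, Slc36a1, Slc36a4 and Slc38a9 they gave 32 features, 27 of which were well above background on no array. None was called, and their log2 differences ran from -0.62 to 0.75 with a median of -0.02. The Slc38a8 value rests on 2 1G11-SOD3 arrays, since its spot was marked as an outlier on the other. Slc7a12, dim on all 6 arrays, was called higher only after the adjustment for place.

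**Figure D2:**
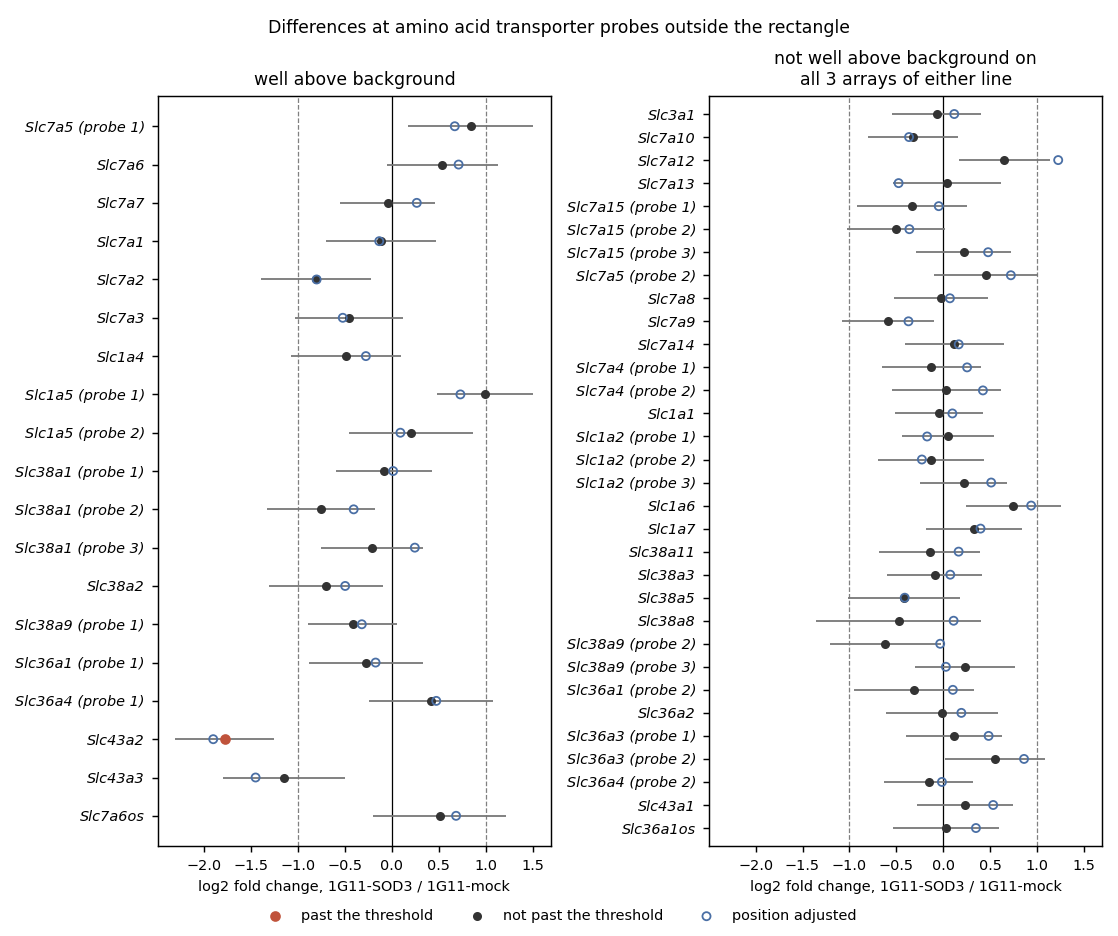
Log2 fold change of 1G11-SOD3 over 1G11-mock (x axis) for each transporter feature outside the rectangle, with well-measured features on the left and the 32 dim ones on the right; filled points are the limma estimates with 95% confidence intervals (lines), open points the estimates after the adjustment for place on the array, and dashed lines mark a 2-fold difference. Slc43a2 alone is past the threshold (red), the interval of Slc43a3 reaches from -1.80 to -0.50, and Slc1a5 probe 1 touches the 2-fold line.

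The 9 features inside the rectangle have to be read against their surroundings. There, 12.1% of all 6435 features were called, 774 (12%) higher and 4 (0.0622%) lower in 1G11-SOD3 cells. Of features well above background 33.8% were called and in 65.1% the lines did not overlap, with a median log2 difference of 1.13. None of the 9 members was called, and in 1 of the 9 the lines did not overlap, where this held for 28.5% of all features inside. That one was Slc3a2. Slc3a2, the heavy chain that brings Slc7a5, Slc7a6 and Slc7a7 to the cell surface, had its single probe here. It read 13.69, 13.68 and 11.24 in 1G11-mock (12.87 ± 1.41, SD, n = 3) and 15.59, 14.54 and 15.09 in 1G11-SOD3 cells (15.07 ± 0.52, SD, n = 3). All 1G11-SOD3 arrays were higher, and the third 1G11-mock replicate was far below the other two.

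The log2 difference of Slc3a2 was 2.20 ± 0.56 (SE, adjusted p = 0.060). The spots around it differed by 1.07 between the lines in the same direction, and 1.08 remained after the adjustment for place (adjusted p = 0.13). The difference passed the threshold with the replicate number as a block (adjusted p = 0.018), with scaling to the 75th percentile and without 1G11-mock replicate 1 (2.61, adjusted p = 0.044). Over the alternatives that kept all arrays, the adjusted p in limma ran from 0.00068 to 0.155. Without 1G11-mock replicate 3 the difference fell to 1.39 (adjusted p = 0.056). The part of the dim region in this value was not tested beyond that adjustment.

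**Figure D3:**
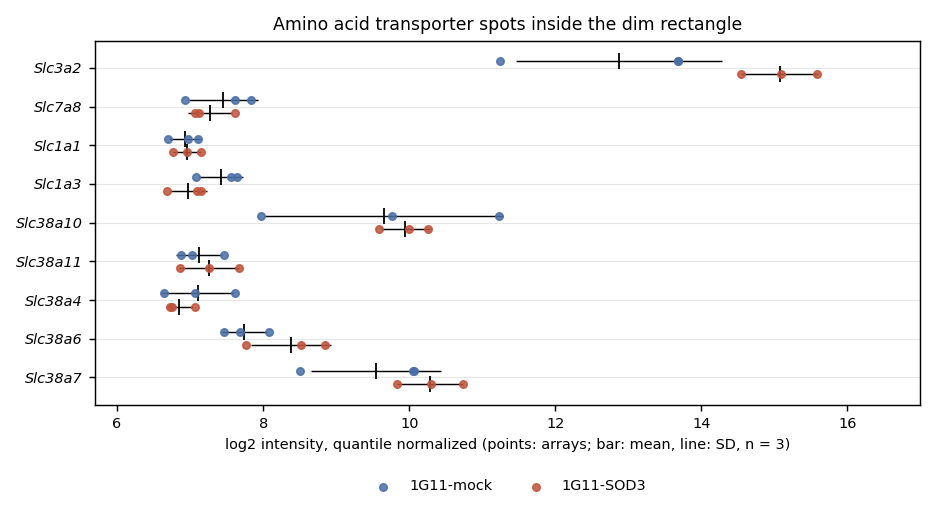
Log2 intensity (x axis, quantile normalized) of the 9 transporter features inside the dim central rectangle, 1 row per gene, with 1 point per array (blue, 1G11-mock; red, 1G11-SOD3), the mean as a bar and the SD as a line (n = 3). Slc3a2 is the only gene whose lines stand apart, and the 1G11-mock points of Slc3a2, Slc38a7 and Slc38a10 each include 1 array well below the others.

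Slc38a7, a lysosomal glutamine carrier, read 10.05, 10.07 and 8.51 in 1G11-mock and 10.74, 9.83 and 10.30 in 1G11-SOD3 cells (difference of 0.75, adjusted p = 0.44). Slc38a10 read 9.76, 11.23 and 7.97 against 9.99, 10.26 and 9.59 (0.29, adjusted p = 0.88). Both were below the median shift of well-measured spots in the rectangle, and after the adjustment for place the differences were -0.53 and -1.53, neither called. Slc38a6 was well above background on 2 1G11-SOD3 arrays and no 1G11-mock array. Its fold was bounded at 1.21 or more, but the difference was not called (adjusted p = 0.365), its 95% confidence interval (-0.02 to 1.30) includes no change, and its sign turned after the adjustment for place (-0.22). Slc1a3 (the glutamate carrier GLAST), Slc38a4, Slc38a11 and the rectangle's copies of Slc1a1 and Slc7a8 were well above background on no array. Slc1a1 and Slc7a8 were printed 10 times, with 9 copies outside and 1 inside. Over the copies outside, the log2 difference ranged from -0.51 to 0.34 for Slc1a1 and from -0.27 to 1.04 for Slc7a8, a spread among dim copies of one sequence.

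4 lists of related genes were set beside the transporters. They held targets and components of the GCN2-ATF4 pathway, which answers amino acid shortage, the mTORC1 complex with its amino acid sensors, enzymes that use the transported amino acids, and amino acid carriers of other families. Outside the rectangle each list had called members, all of them lower in 1G11-SOD3 cells, although with the scanner's processed signal the called features were 4 higher and 2 lower in the response list and 5 higher and 1 lower among the enzymes. The shares called are to be read against 1.86% of all features outside the rectangle (1.2% lower) and 5.04% of those well above background. In the amino acid response list 3 of 38 features were called (7.89%, median difference 0.07), or 8.82% of the 34 well above background. Atf3, a stress-induced transcription factor, was lower by the most, with 10.43, 10.42 and 10.78 against 9.28, 8.79 and 8.17 and a difference of -1.79 (adjusted p = 0.007). Ddit3 (CHOP), which drives death under prolonged stress, fell by 1.28 (adjusted p = 0.019) and Sesn2, a leucine sensor, by 1.14 (adjusted p = 0.019). After the adjustment for place Atf3 (-1.49) and Ddit3 (-1.01) were still called and Sesn2 (-0.82) was not. All 3 also answer stresses other than amino acid shortage. The number of called features in the list was 1 when 1G11-mock replicate 2, 1G11-SOD3 replicate 1 or 1G11-SOD3 replicate 3 was left out.

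Of the genes for amino acid sensing by mTORC1, 1 of 33 features was called (3.03%, median -0.18). Of the 25 features well above background this was 4%, where 5.04% of all such features outside were called. The called gene was Fnip2, a partner of folliculin, at -1.09 (adjusted p = 0.033), and the call was lost with any array left out and after the adjustment for place (-0.79, adjusted p = 0.091). Among the enzymes 4 of 36 features were called (11.1%, median 0.17), or 12.9% of the 31 well above background. Both probes of Ass1, which makes argininosuccinate in the recycling of citrulline to arginine, were lower, with differences of -1.81 (adjusted p = 0.012) and -1.49 (adjusted p = 0.029). Gpt2, the mitochondrial alanine transaminase, fell by 1.70 (adjusted p = 0.004). Bckdha, a subunit of the enzyme that degrades branched-chain keto acids, fell by 1.23 (adjusted p = 0.014). Ass1 and Gpt2 were still called after the adjustment for place and Bckdha was not (-0.67). Without 1G11-mock replicate 2, 1 enzyme feature was called.

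Among carriers of other families 3 of 29 features were called (10.3%, median -0.13), or 42.9% of the 7 well above background. They were the taurine carrier Slc6a6 (-1.43, adjusted p = 0.006), the glycine carrier Slc6a9 (-1.58, adjusted p = 0.005, with a second probe not called at -0.95, adjusted p = 0.043) and the lysosomal cystine exporter Ctns (-1.24, adjusted p = 0.018). None of the 3 was called after the adjustment for place, which left -0.82, -0.94 and -0.65. Inside the rectangle 1 of 7 sensing features (Rraga), 3 of 7 enzyme features (Bcat2, Mat2a and Odc1) and 1 of 6 features of other carriers (Slc25a13) were called, all higher, where 12.1% of all features were. Of these only Rraga was called after the adjustment for place.

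**Figure D4:**
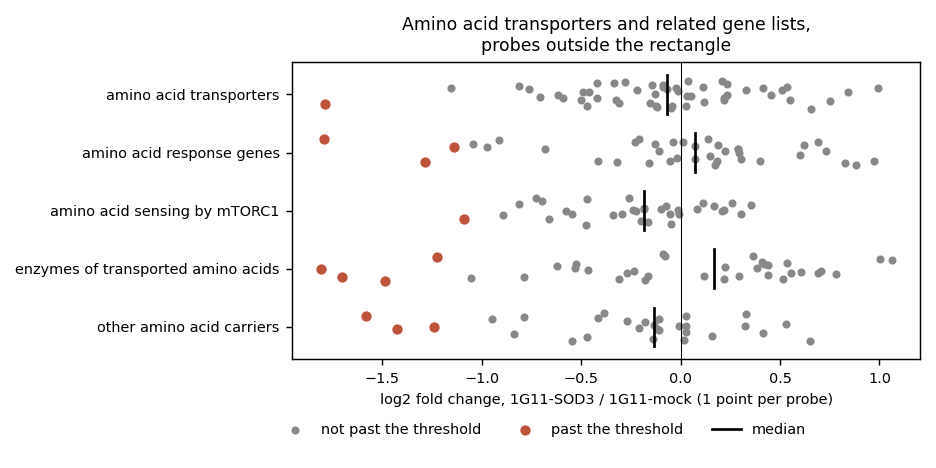
Log2 fold change of 1G11-SOD3 over 1G11-mock (x axis) for the probes outside the rectangle of the amino acid transporters and the 4 related lists, 1 point per feature (red, past the threshold of 2-fold and adjusted p under 0.05; gray, not past it), with the median of each list as a bar; points are spread vertically for visibility only. The medians lie between -0.18 and 0.17, and all red points are on the lower side.

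Some markers of other cell types differed between the lines. In the fibroblast or pericyte list 5 of 8 features outside the rectangle were called higher in 1G11-SOD3 cells (Col1a1, Col1a2, Col3a1, Pdgfrb and Lum), and the normalized intensity summed over the brightest feature of each gene in the list was 74443 to 75319 on the 1G11-mock and 132214 to 365899 on the 1G11-SOD3 arrays. Of the called markers Lum and Col1a2 were well above background on no 1G11-mock array. Pdgfra (0.27), Dcn (0.29) and Rgs5 (-0.54) were not called outside the rectangle. Dcn read 14.78, 14.48 and 14.04 in 1G11-mock and 13.51, 13.59 and 17.05 in 1G11-SOD3 cells, so that only the third 1G11-SOD3 replicate was higher. The summed endothelial markers were 22330 to 30140 against 15333 to 18912, with Vwf called lower (-1.66, adjusted p = 0.003). Vwf was the only one called of 12 endothelial features outside the rectangle, whose median difference was -0.07. The bright markers Eng (-1.05, adjusted p = 0.083) and Kdr (-0.51, adjusted p = 0.30) were not called. Flt1 and Esam, inside the rectangle, differed by 1.08 and 1.22 and were not called. No epithelial or macrophage marker was called. Their part in the transporter results was not tested. Fewer cells expressing a transporter and less of its mRNA per cell cannot be told apart in these data.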

How the data were processed

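RNA of 3 1G11-mock and 3 1G11-SOD3 cultures was measured on 6 single-color arrays. The authors deposited the Agilent Feature Extraction 10.7.3.1 output of each array, with spot and local background intensity not normalized between arrays, and a table of background-corrected, quantile-normalized log2 values. That deposited log2 table (median of 7.52 per array) was recomputed to within 0.005 and served as an alternative. Here control spots were removed, the mean spot intensity was corrected by normexp (offset of 50) with the local background median, and log2 values were quantile normalized in R 4.3.3 (limma 3.58.1). Outlier spots were left out, and spots of one probe were averaged separately inside and outside the rectangle. The 6 arrays were fitted with limma (lmFit, eBayes), with Benjamini-Hochberg adjustment over 55961 features. Python 3.11.15, pandas 2.3.3, scipy 1.17.1 and matplotlib 3.10.9 were used for tables and figures. The procedure was tested on simulated data.

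"Well above background" is the scanner software's mark, required on all 3 arrays of a line. The adjustment for place subtracts a running median over 12 rows and 6 columns on either side of a spot. This window brought the SD of the difference between the lines among 10 copies of 192 bright probes down from 0.843 to 0.297, and was chosen for that. A second form of the adjustment, chosen after seeing the data, acts only on signal above the offset. The reason is that the first form lowers dim spots in the rectangle. A fold for a feature well above background in one line only is given as a bound. Same-numbered replicates of the lines deviated together (correlations of 0.167, 0.101 and 0.157 over 16342 features). Such arrays also shared a column of the slide, and a shared column and a shared replicate cannot be told apart. In an alternative fit, the replicate block, the numbers were taken to pair the arrays, on the basis of the data and not of the labels. The main fit had no block. The other alternatives were no background correction, the processed signal, scaling to the 75th percentile, dim features left out, outlier spots kept, all copies of a probe averaged, the rectangle left out, and each array left out. The number of arrays limits the precision. All 43 symbols matched the RefSeq gene table.

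The genes named are all members well above background outside the rectangle, all members inside it, and list genes called outside it, and others are given by name or count. The members and lists were chosen with earlier results of these data known. No column of per-sample values was left unused for want of a sample.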

Additional observations from a re-analysis of the deposited data

How the results depend on the processing

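Slc43a2 was called under every setting. The number of called members outside the rectangle was 1 of 51, where 1.86% of all features outside were called. It was 2 with scaling to the 75th percentile (2.99% of all features), the replicate block (2.51%), the position adjustment above the offset (1.40%) or the rectangle left out (1.55%). With dim features left out it was 2 of 19 (10.5%), where 5.83% of all features were called. It was 3 with the position adjustment (1.78%) and 1 to 2 with an array left out (0.886% to 1.74%). With the processed signal it was 10 (2 higher and 8 lower, or 19.6%), where 15.998% of all features outside were called. The list counts below are to be read against the same shares. Calls under every setting rest on the fitted values, from which no shift of the median was taken off. Inside the rectangle the number of called members was 0 of 9, where 12.1% of all features inside were called. It was 1 with scaling to the 75th percentile or the replicate block (Slc3a2, higher in 1G11-SOD3 cells). With the position adjustment it was also 1 (Slc1a1, lower and dim on all arrays). It was 4 with the processed signal, all lower, and 0 to 1 with an array left out. The 3 response features became 1 with the position adjustment above the offset and 6 with the processed signal (4 higher and 2 lower), and 1 to 4 with an array left out (the cause was not tested). The single sensing feature became 0 without background correction, with scaling to the 75th percentile, with either position adjustment or with the rectangle left out, and was 0 with each array left out in turn. The 4 enzyme features became 7 with the position adjustment (3 of them higher), 6 with the processed signal (5 higher and 1 lower) and 1 to 4 with an array left out. The 3 features of other carriers became 0 with either position adjustment and 8 with the processed signal. The replicate block, which pairs the arrays by number, added the calls of Slc43a3 and Slc3a2 and changed no other member's call.

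For 20 member features well above background, 300 values under the alternatives kept their direction and side of the threshold, 13 newly passed it and 26 changed sign, all of them uncalled. Scaling to the 75th percentile and the processed signal moved the median of all features from -0.03 to -0.34 and -0.52. Signs counted under these settings, and the values that follow for them, are relative to that median. A relative value smaller in size than the median was negative as fitted. Calls and adjusted p rest on the fitted values, before the median was taken off. With scaling to the 75th percentile Slc7a1 became 0.42, Slc7a7 0.43, Slc36a1 0.0033 and Slc38a1 probes 1 and 3 0.42 and 0.047. With the processed signal Slc7a1 became 0.23, Slc1a4 0.33, Slc7a7 0.77, Slc38a2 0.38, Slc38a9 0.25 and Slc38a1 probes 1 to 3 0.47, 0.54 and 0.42. The position adjustment gave 0.26 for Slc7a7 and 0.012 and 0.24 for Slc38a1 probes 1 and 3, and above the offset 0.26, 0.012 and 0.15. With the rectangle left out Slc7a1 became 0.032, Slc7a7 0.12 and Slc38a1 probe 1 0.047. With an array left out Slc7a1 ranged from -0.33 to 0.14 (positive without 1G11-SOD3 replicate 3) and Slc7a7 from -0.14 to 0.11 (positive without 1G11-SOD3 replicate 3 or 1G11-mock replicate 3), and Slc1a5 probe 2 from -0.074 (without 1G11-mock replicate 1) to 0.54. Signal over background limits the 32 dim features outside the rectangle.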
